A study of Mus musculus with 8 samples.

Results

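The imprinted genes Dlk1, Meg3, Rian, Mirg, H19, Igf2, Cdkn1c, Ndn, Peg3 and Grb10 were examined in mouse long-term haematopoietic stem cells (LT-HSCs). They are 10 of the 24421 genes in the deposited tables. They were picked by name as an imprinted growth network, with earlier results of these data known. All were present and passed the filter on low counts. Total RNA had been sequenced from lineage-negative, CD117-positive, Sca1-positive bone marrow cells with high CD150 and low CD48, parted into Vwf+ and Vwf− fractions by a green fluorescent Vwf reporter. Vwf encodes von Willebrand factor, and the reporter marks stem cells biased toward megakaryocytes. The 4 groups of 2 libraries were Vwf+ cells of Dnmt3a+/− mice, Vwf+ cells of wild-type (WT) mice, Vwf− cells of Dnmt3a+/− mice and Vwf− cells of WT mice. The product of Dnmt3a adds methyl groups to unmethylated DNA, and Dnmt3a+/− animals were heterozygous. Neither the altered allele nor the reporter construct, which all 4 groups share, is described in the labels. All mice were 10 to 12 months old, each replicate was pooled from 3 to 4 mice, and replicate 1 was male and replicate 2 female in every group. Sex and replicate number therefore cannot be told apart, and single mice were not resolved. The labels do not say whether the Vwf+ and Vwf− libraries of 1 genotype and number share mice. With shared mice, the fit without a replicate block would treat 2 fractions of 1 pool as independent.

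In imprinted genes only the copy from 1 parent is active, under control of a DNA methylation mark that is set in the germ line and kept afterwards. Dlk1, Igf2, Ndn and Peg3 are expressed from the paternal copy, and Meg3, Rian, Mirg, H19 and Cdkn1c from the maternal copy. Grb10 is maternal in most mouse tissues and paternal in neurons. Several of these genes restrain or promote growth before birth. In adult mice Cdkn1c, Ndn and the H19 locus are known from knockouts or deletions for holding stem cells in quiescence or for their maintenance.

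Total counts were 21809278 to 39402418 per library, which limits counting error for the abundant members but not for H19 and Mirg. Vwf stood at 1034 to 1408 CPM (counts scaled to a total of 1e+06 per library, with a correction for library composition) in the 4 Vwf+ libraries, against 98.9 to 116 CPM in the 4 Vwf− libraries. Dnmt3a stood at 179 to 361 CPM in the 4 Dnmt3a+/− libraries and at 175 to 251 CPM in the 4 WT libraries, and gene counts do not separate alleles, so they check no genotype label. The 12 LT-HSC markers were detected in all 8 libraries and summed to 3392 to 3803 CPM in Vwf+ and to 3003 to 3361 CPM in Vwf− libraries. The T and NK cell markers summed to at most 0.607 CPM in any library, and the haemoglobin genes Hba-a1 and Hbb-bt were at 0 in all 8. The male Vwf− Dnmt3a+/− library stood apart in nuclear-retained RNAs (Malat1, Neat1, Kcnq1ot1, Xist and others). At 20281 CPM against 6489 to 13760 CPM in the other libraries, that library had the highest sum. Without it, H19, Dlk1, Rian, Ndn and Cdkn1c still rose in Vwf+ cells averaged over genotype (edgeR, log2 changes of 4.21, 2.46, 1.67, 1.13 and 0.94, adjusted p up to 0.00711), Meg3 rose as well, and Peg3 no longer passed (0.997, adjusted p = 0.0609).

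The members lie at 5 places in the genome (mm10, which is GRCm38, in the GENCODE M21 annotation). On chromosome 12, Dlk1 (chr12:109452823-109463336), Meg3 (chr12:109541001-109571726), Rian (chr12:109603940-109661716) and Mirg (chr12:109729764-109749460) follow one another on the plus strand. Distal chromosome 7 carries H19 (chr7:142575529-142578143), Igf2 (chr7:142650766-142666816) and Cdkn1c (chr7:143458339-143461050), all on the minus strand. Ndn (chr7:62346569-62350262, plus strand) and Peg3 (chr7:6703892-6730431, minus strand) lie elsewhere on chromosome 7, and Grb10 (chr11:11930508-12038683, minus strand) on chromosome 11.

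RefSeq (GRCm38.p6) gave start-site sequence, 250 bases before to 50 after a transcript start, for 8 of the 10 members. The 4 shown are those of Dlk1, Ndn and Peg3, 3 coding members that rose in Vwf+ cells, and of the first Meg3 start, at the head of the maternal transcripts of chromosome 12. Capitals mark any match, on either strand, to 9 motifs. These were the cyclic AMP response element or CRE (TGACGTCA), the box named for its own letters (CCAAT), the TATA box (searched as TATAAA), the GC box bound by Sp1 (searched as GGGCGG) and the site of the respiratory factor NRF1 (GCATGCGC). The other motifs were the E-box of basic helix-loop-helix proteins (searched as CACGTG), the site of the blood cell GATA factors (searched as AGATAA), the site of ETS factors (CCGGAAGT) and the site of the AP-1 proteins (searched as TGANTCA). The windows, each written 5′ to 3′ on its gene's strand, are chr12:109452573-109452872 for Dlk1 (plus), chr12:109540746-109541045 for Meg3 (plus), chr7:62348027-62348326 for Ndn (plus) and chr7:6730370-6730669 for Peg3 (minus).
Dlk1: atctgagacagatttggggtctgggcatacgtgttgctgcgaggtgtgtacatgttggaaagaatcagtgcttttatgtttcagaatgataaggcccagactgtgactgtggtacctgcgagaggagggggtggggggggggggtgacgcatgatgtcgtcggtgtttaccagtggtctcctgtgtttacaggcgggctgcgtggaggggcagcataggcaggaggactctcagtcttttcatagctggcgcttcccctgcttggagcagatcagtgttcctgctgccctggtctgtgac
Meg3: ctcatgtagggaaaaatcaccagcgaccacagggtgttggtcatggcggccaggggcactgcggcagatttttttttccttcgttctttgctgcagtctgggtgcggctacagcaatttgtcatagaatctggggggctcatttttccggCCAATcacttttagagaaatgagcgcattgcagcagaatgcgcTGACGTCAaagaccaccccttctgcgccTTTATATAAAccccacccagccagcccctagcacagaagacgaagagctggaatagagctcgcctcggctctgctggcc
Ndn: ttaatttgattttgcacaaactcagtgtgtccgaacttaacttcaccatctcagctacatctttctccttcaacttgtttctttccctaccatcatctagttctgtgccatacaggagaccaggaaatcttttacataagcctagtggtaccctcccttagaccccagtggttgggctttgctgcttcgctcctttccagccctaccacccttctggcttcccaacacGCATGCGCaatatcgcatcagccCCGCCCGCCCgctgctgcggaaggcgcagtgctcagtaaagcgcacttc
Peg3: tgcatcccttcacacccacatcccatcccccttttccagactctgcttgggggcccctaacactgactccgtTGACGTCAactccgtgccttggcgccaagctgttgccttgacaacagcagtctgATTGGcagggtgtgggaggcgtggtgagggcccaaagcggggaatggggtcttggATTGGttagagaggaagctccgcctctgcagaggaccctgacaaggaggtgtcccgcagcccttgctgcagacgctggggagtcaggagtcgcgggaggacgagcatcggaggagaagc
A CRE was present in the Meg3 window, at position −57 from the start, and in the Peg3 window, at −178, and in 1.79% of 32851 mouse start-site windows of that length. The Meg3 window also held a CCAAT box at −100 and overlapping TATA boxes on both strands, motifs that 37.4% and 13.6% of windows held. The Ndn window held an NRF1 motif at −22, which 2.71% of windows held, and 2 overlapping GC boxes, which 35.7% held. The Peg3 window held 2 CCAAT boxes, and the Dlk1 window none of the 9 motifs. CpG pairs numbered 13, 13, 11 and 9 in the Meg3, Peg3, Ndn and Dlk1 windows, against a median of 7 over all windows. Fewer pairs were held by 62.1%, 62.1%, 58.6% and 54.2% of all windows, in the same order. A letter match is a description and shows no binding.

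H19 is also the host of a miRNA, miR-675, which is shown because H19 had the largest change of the members. Its mature arms (RefSeq, chr7:142577112-142577133 and chr7:142577078-142577099, minus strand) read as follows, with the seed, bases 2 to 8, in capitals.
miR-675-5p: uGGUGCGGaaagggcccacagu
miR-675-3p: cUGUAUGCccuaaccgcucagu
The hairpin row Mir675 had a count of 0 in all 8 libraries. Of 32 rows for small RNAs hosted by or beside the members, 18 had a count in some library, the highest being 11, so none was tested. How reads over a hairpin were assigned between host and hairpin rows is not given in the sources used here, and such rows do not measure mature miRNAs.

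Per unit of gene length (TPM, counts per length scaled to 1e+06 per library), the members fell into a high and a low group. Grb10, an adaptor that dampens insulin and IGF receptor signalling, averaged 82.4 TPM over the 8 libraries, Ndn, which encodes the growth suppressor necdin, 70.3 TPM, and Cdkn1c, the gene of the cell cycle inhibitor p57, 44.5 TPM. The lowest level of these 3 was 28.5 TPM, for Cdkn1c. The other 7 averaged 5.18 TPM (Rian), 3.78 (Dlk1), 3.42 (Meg3), 2.91 (H19), 2.26 (Igf2), 1.40 (Peg3) and 0.999 TPM (Mirg), and none of them exceeded 11.5 TPM in a library. Within each group of genes, neighbours in this order overlapped in range, so only the step from Cdkn1c to Rian exceeded the spread over libraries.

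**Figure D1:**
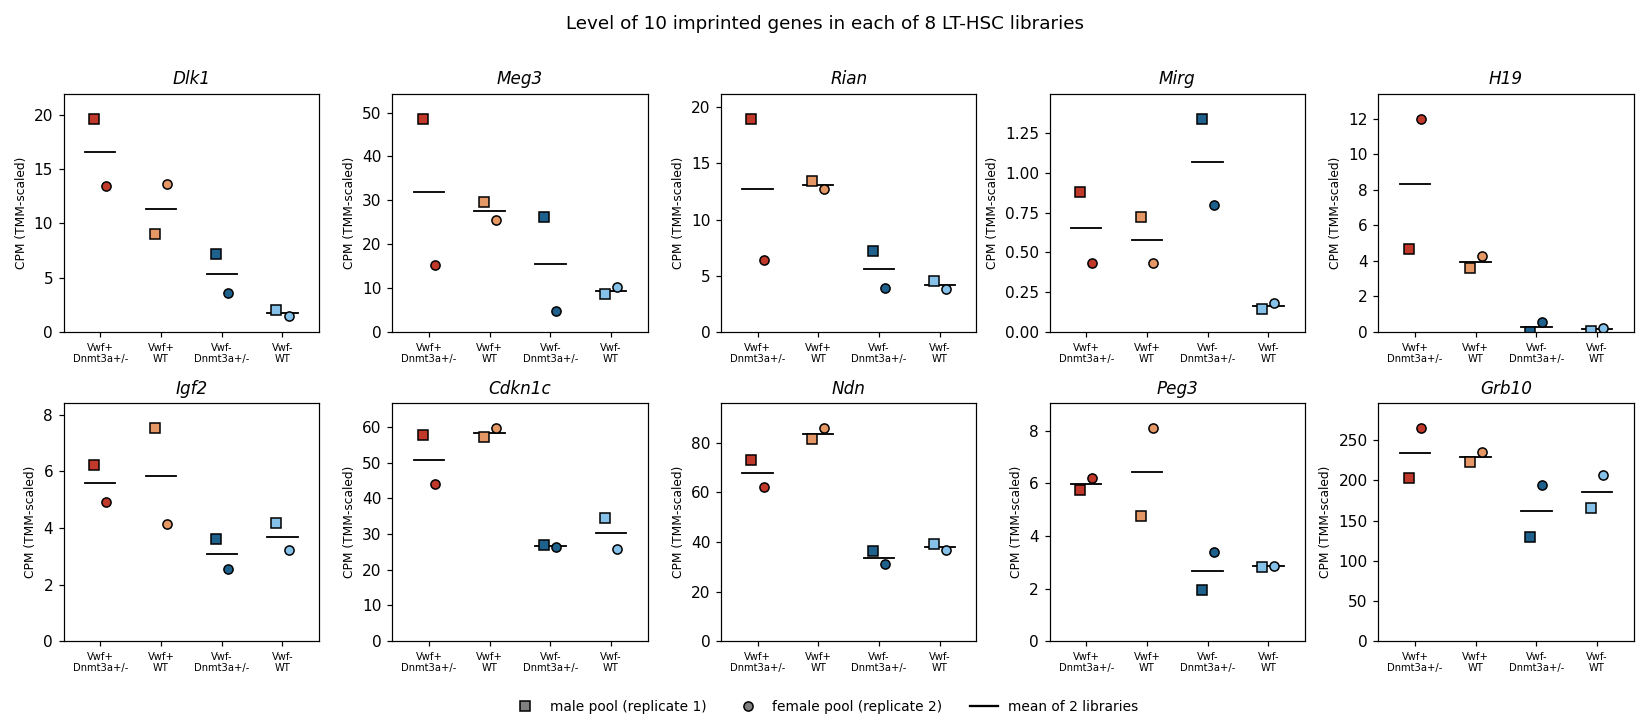
CPM of each of the 10 genes (vertical axis, from 0, own scale per gene) in the 8 libraries by group; squares are male and circles female pools, and lines are means of 2 libraries. Dlk1, H19, Cdkn1c, Ndn and Peg3 are higher in every Vwf+ library than in any Vwf− library, whereas Mirg is lowest in the Vwf− WT libraries and highest in the male Vwf− Dnmt3a+/− library.

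The main comparison asked how Vwf+ LT-HSCs differ from Vwf− LT-HSCs. Of the 10 members, 6 rose in Vwf+ cells when averaged over genotype (H19, Dlk1, Rian, Peg3, Ndn and Cdkn1c), none fell, and Meg3, Grb10, Igf2 and Mirg did not pass (edgeR's quasi-likelihood test, adjusted p under 0.05 over 15917 genes). The background was 3.76% of tested genes higher and 1.68% lower (5.44% in either direction). The median log2 change of the 10 members was 1.13, beside −0.01 over all tested genes. With replicate number as a block, 8 members rose, Meg3 and Grb10 being added, and none fell. The background was then 7.42% of tested genes higher and 5.97% lower. In CPM, 5 members had all 4 Vwf+ libraries above all 4 Vwf− libraries, as did 7.71% of tested genes, and no member had all 4 below, as did 5.33%. In addition, 9 members were higher in Vwf+ cells in all 4 pairs of libraries of the same genotype and replicate number, as were 16.6% of tested genes. The members were chosen with earlier results of these data known. The shares beside the background therefore describe these genes and are no test of imprinted genes as a class. Since these are bulk samples, more cells that express a gene and more RNA per cell cannot be told apart.

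H19, the maternal noncoding RNA that neighbours Igf2, showed the largest change. Its counts were 106 and 331 in the male and female Vwf+ Dnmt3a+/− libraries and 80 and 99 in the Vwf+ WT libraries, against 0 and 18 in the Vwf− Dnmt3a+/− libraries and 2 and 8 in the Vwf− WT libraries. The fractions did not overlap, and H19 was close to undetected in Vwf− cells. The 0 allows up to 0.0761 CPM (3 counts of that library's total). In CPM the levels were 8.32 ± 5.19 in Vwf+ and 0.287 ± 0.406 in Vwf− cells of Dnmt3a+/− mice, and 3.93 ± 0.470 in Vwf+ and 0.155 ± 0.120 in Vwf− cells of WT mice (SD, n = 2 each). The log2 change was 4.75 ± 0.80 (standard error, SE), or 27.0-fold (adjusted p = 0.00679), and ran from 4.21 to 7.73 when single libraries were left out, with adjusted p from 0.00011 to 0.0212. The 7.73 came without the female Vwf− Dnmt3a+/− library, which leaves that group at a count of 0, so this value is no bound.

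Igf2, the growth factor gene that shares the H19 locus, stood at 6.23 and 4.92 CPM in Vwf+ Dnmt3a+/− cells and 7.51 and 4.13 in Vwf+ WT cells, against 3.61 and 2.55 in Vwf− Dnmt3a+/− cells and 4.18 and 3.21 in Vwf− WT cells. The ranges overlapped, and the log2 change of 0.75 ± 0.29 did not pass (adjusted p = 0.207; 0.0715 with the block on replicate number). The ratio of H19 to Igf2 in TPM was 1.38 and 4.51 in Vwf+ Dnmt3a+/− and 0.887 and 1.91 in Vwf+ WT libraries, against 0 and 0.417 in Vwf− Dnmt3a+/− and 0.0314 and 0.138 in Vwf− WT libraries. All 4 Vwf+ ratios lay above all 4 Vwf− ratios. Their means were 2.17 ± 1.61 and 0.147 ± 0.189 (SD, n = 4 each). The two-sided exact permutation test gave p = 0.0286, the smallest it can give, and 0.229 after adjustment over the 8 ratio tests made. Like the other ratio tests, it shuffled all 8 libraries freely, without regard to genotype, replicate number or any sharing of mice.

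Dlk1, which encodes a transmembrane protein with EGF-like repeats related to Notch ligands, stood at 19.6 and 13.5 CPM in the Vwf+ Dnmt3a+/− cells and at 8.996 and 13.6 in the Vwf+ WT cells. In Vwf− cells it stood at 7.14 and 3.54 CPM in Dnmt3a+/− and at 2.02 and 1.44 in WT cells. Every Vwf+ library lay above every Vwf− library, and within Vwf− cells both Dnmt3a+/− libraries lay above both WT libraries. The Vwf difference was 2.17 ± 0.29 on the log2 scale (adjusted p = 0.00190), and it passed without any single library (1.95 to 2.46).

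The maternal transcripts of the same cluster were less even. Rian, a noncoding RNA that carries small nucleolar RNAs, stood at 18.9 and 6.44 CPM in Vwf+ Dnmt3a+/− cells, 13.4 and 12.7 in Vwf+ WT cells, 7.24 and 3.93 in Vwf− Dnmt3a+/− cells and 4.53 and 3.78 in Vwf− WT cells. The female Vwf+ Dnmt3a+/− library lay below the male Vwf− Dnmt3a+/− library, so the fractions overlapped. Rian rose by 1.42 ± 0.33 (log2, SE; adjusted p = 0.0358). The call was lost with plain library totals (adjusted p = 0.0600), without either Vwf+ WT library, without either Vwf− WT library and without the male Vwf+ Dnmt3a+/− library, where the change was 0.93 (adjusted p from 0.0539 to 0.116 in these 5 fits).

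Meg3, the noncoding RNA that heads the maternal transcripts, stood at 48.5 and 15.3 CPM in Vwf+ Dnmt3a+/− cells, 29.6 and 25.4 in Vwf+ WT cells, 26.3 and 4.79 in Vwf− Dnmt3a+/− cells and 8.60 and 10.2 in Vwf− WT cells. The male Dnmt3a+/− library exceeded the female one in both fractions, and the fractions overlapped. The log2 change was 1.29 ± 0.47 (adjusted p = 0.175), and Meg3 was higher in Vwf+ cells in 4 of 4 pairs. With replicate number, and so sex, as a block the change was 1.30 ± 0.27 (adjusted p = 0.00183). Without the male Vwf− Dnmt3a+/− library, the one high in nuclear-retained RNAs, it was 2.14 (adjusted p = 0.00135), and without the male Vwf+ Dnmt3a+/− library 0.76 (adjusted p = 0.491).

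Mirg, the host of a miRNA cluster at the far end of the locus, was detected with few reads. It had 20 and 12 counts in Vwf+ Dnmt3a+/−, 16 and 10 in Vwf+ WT, 56 and 25 in Vwf− Dnmt3a+/− and 4 and 6 in Vwf− WT libraries. It was thus the 1 member not higher in Vwf+ cells in all 4 pairs, being lower in both Dnmt3a+/− pairs and higher in both WT pairs. The averaged change was 0.55 ± 0.67 (adjusted p = 0.777). Rtl1, a paternal gene on the opposite strand between Meg3 and Rian, had 57 and 33 counts in Vwf+ Dnmt3a+/−, 49 and 87 in Vwf+ WT, 64 and 11 in Vwf− Dnmt3a+/− and 18 and 17 in Vwf− WT libraries. It did not pass (log2 change 1.66 ± 0.55, adjusted p = 0.135; 1.76 ± 0.54 and adjusted p = 0.0320 with the block).

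Beside Meg3, the ratio of Rian to Meg3 in TPM was 1.60 ± 0.17 in Vwf+ and 1.80 ± 0.86 in Vwf− libraries (SD, n = 4 each; exact permutation p = 0.771, adjusted 0.882). The ratio of Mirg to Meg3 was 0.180 and 0.283 in Vwf+ Dnmt3a+/−, 0.242 and 0.169 in Vwf+ WT, 0.507 and 1.66 in Vwf− Dnmt3a+/− and 0.164 and 0.176 in Vwf− WT libraries. The Vwf− Dnmt3a+/− libraries had the 2 highest values. Between genotypes it averaged 0.658 ± 0.683 in Dnmt3a+/− and 0.188 ± 0.037 in WT (SD, n = 4 each; exact permutation p = 0.0571, adjusted 0.229). The ratio of Dlk1 to Meg3 averaged 1.43 ± 0.68 in Vwf+ and 0.934 ± 0.721 in Vwf− libraries (p = 0.371, same exact test, adjusted 0.640). None of the 8 ratio tests passed after adjustment. Rian, Mirg and Meg3 overlap 19, 15 and 5 other annotated genes, mostly small RNAs inside them, and strand use in counting is not given, so their counts are of uncertain assignment.

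**Figure D2:**
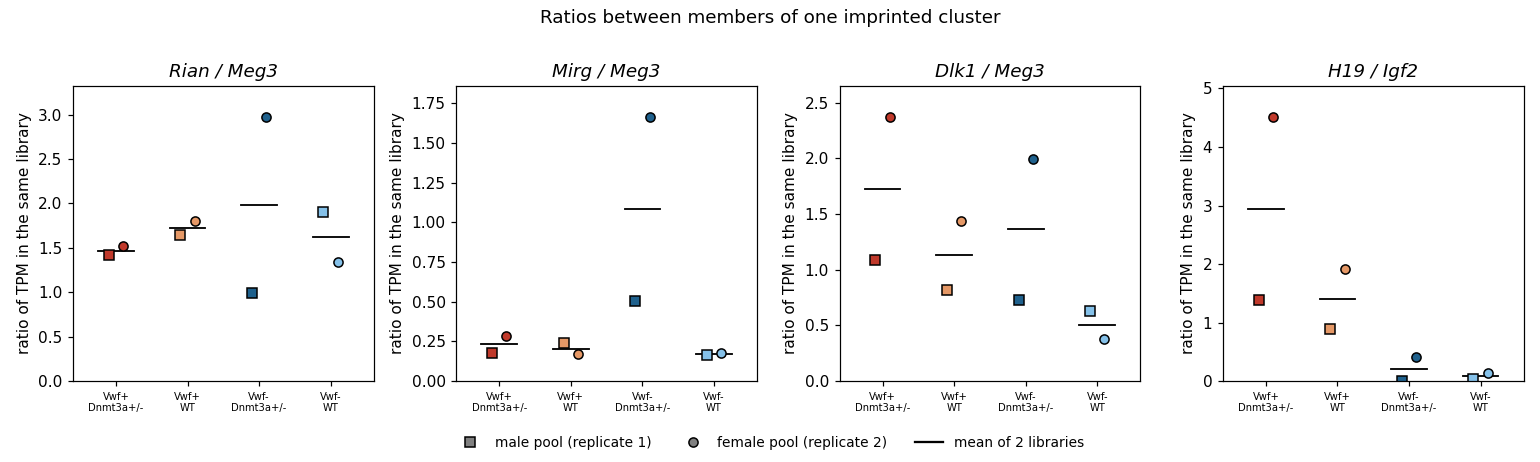
Ratios of TPM within a library (vertical axis, from 0) for Rian, Mirg and Dlk1 over Meg3 and for H19 over Igf2, by group, with male squares, female circles and lines at the mean of 2. H19 over Igf2 is higher in each Vwf+ than in any Vwf− library, and Mirg over Meg3 is highest in the 2 Vwf− Dnmt3a+/− libraries, at 0.507 and 1.66.

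Ndn and Cdkn1c, which encode growth suppressors, rose. Ndn stood at 73.1 and 62.3 CPM in Vwf+ Dnmt3a+/− cells and 81.5 and 85.8 in Vwf+ WT cells, against 36.3 and 31.1 in Vwf− Dnmt3a+/− cells and 39.2 and 36.6 in Vwf− WT cells. The fractions were well apart, with a log2 change of 1.07 ± 0.11, or 2.11-fold (adjusted p = 0.000421), and 1.01 to 1.13 without single libraries. Cdkn1c stood at 57.7 and 43.9 CPM in Vwf+ Dnmt3a+/− cells and 57.1 and 59.6 in Vwf+ WT cells, against 26.9 and 26.5 in Vwf− Dnmt3a+/− cells and 34.5 and 25.8 in Vwf− WT cells. It rose by 0.94 ± 0.14, or 1.92-fold (adjusted p = 0.00338), and passed in every fit without a single library.

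Peg3, a zinc finger gene of the paternal network, stood at 5.75 and 6.23 CPM in Vwf+ Dnmt3a+/− cells and 4.77 and 8.10 in Vwf+ WT cells, against 1.93 and 3.38 in Vwf− Dnmt3a+/− cells and 2.83 and 2.85 in Vwf− WT cells. The fractions did not overlap, and the change was 1.18 ± 0.30 (adjusted p = 0.0481). That call sat at the threshold. It was lost with plain library totals (adjusted p = 0.0543) and in 6 of 8 fits without a single library (adjusted p up to 0.190), and it passed without the male Vwf+ WT or the female Vwf− Dnmt3a+/− library. Grb10 stood at 203 and 265 CPM in Vwf+ Dnmt3a+/− cells and 222 and 235 in Vwf+ WT cells, against 129 and 194 in Vwf− Dnmt3a+/− cells and 166 and 206 in Vwf− WT cells. The ranges overlapped, and the change of 0.42 ± 0.15 did not pass (adjusted p = 0.183). It was higher in 4 of 4 pairs and passed with the block (0.43 ± 0.10, adjusted p = 0.00520) and without the female Vwf− Dnmt3a+/− library (0.57, adjusted p = 0.0358).

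**Figure D3:**
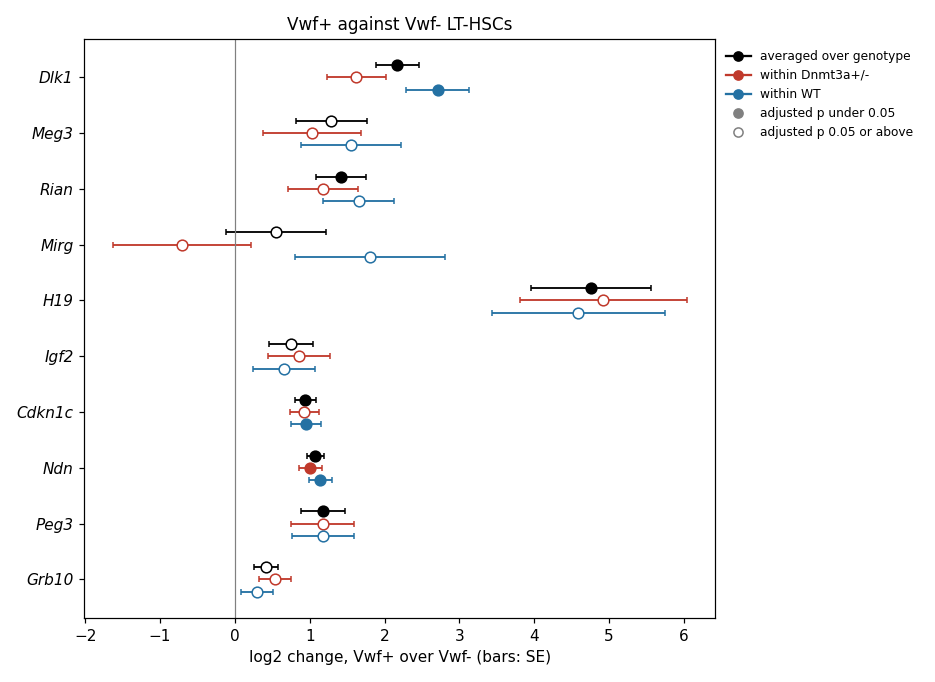
Log2 change of each gene, Vwf+ over Vwf− (horizontal axis), averaged over genotype (black), within Dnmt3a+/− (red) and within WT (blue), with bars of 1 SE and filled points at an adjusted p under 0.05. H19 shows the largest change at 4.75, Ndn and Cdkn1c have the shortest bars, and Mirg alone lies on opposite sides of 0 in the 2 genotypes.

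Within Dnmt3a+/− mice only Ndn passed (1.01 ± 0.16, adjusted p = 0.0147; background 0.892% of genes higher). Within WT mice Dlk1 (2.71 ± 0.42, adjusted p = 0.0123), Ndn (1.14 ± 0.16, adjusted p = 0.00568) and Cdkn1c (0.95 ± 0.20, adjusted p = 0.0392) passed (background 1.48% higher). With the replicate block 6 members passed within each genotype. These were Dlk1, Rian, H19, Cdkn1c, Ndn and Grb10 in Dnmt3a+/− (background 3.52%) and Dlk1, Meg3, Rian, H19, Cdkn1c and Ndn in WT (background 4.57%). The log2 change of Cdkn1c was 0.93 in Dnmt3a+/− and 0.95 in WT, that of Peg3 1.17 in Dnmt3a+/− and 1.18 in WT, and that of H19 4.92 in Dnmt3a+/− and 4.59 in WT. Without single libraries the H19 change ran from 3.86 to 10.9 in Dnmt3a+/− (adjusted p from 0.00413 to 0.330) and from 4.00 to 5.71 in WT. The 10.9 came without the female Vwf− Dnmt3a+/− library, which leaves that group at a count of 0, and is no bound. Libraries that decided calls were the male Vwf+ and the female Vwf− Dnmt3a+/− library for Ndn in Dnmt3a+/− (adjusted p = 0.0807 and 0.0617 without them) and the female libraries of WT for Dlk1 and Ndn in WT (adjusted p from 0.0726 to 0.111). Cdkn1c in WT lost its call without any 1 of the 4 WT libraries, and with plain library totals (adjusted p = 0.0770).

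Other genes of the pathways were read from lists. Of 18 other paternally expressed imprinted genes tested, none passed in the Vwf comparison (12 had a positive change, median 0.14), and of 15 other maternally expressed ones none passed (7 positive, median −0.06). With the replicate block, where 7.42% of tested genes were higher and 5.97% lower, Rtl1 and Impact rose and Peg13 and Mcts2 fell among the paternal genes (adjusted p of 0.0320, 0.0272, 0.0309 and 0.0436), and Asb4, Igf2r and Cd81 rose among the maternal ones (0.0284, 0.0335 and 0.0127). Of 19 genes of IGF and insulin signalling, Igf2bp2, an RNA-binding protein of Igf2 mRNA (log2 change 2.37 ± 0.24, adjusted p = 0.0004), and Igfbp5, a binding protein of the ligand (1.79 ± 0.34, adjusted p = 0.0119), rose and none fell (median 0.17). Of 14 Notch pathway genes the ligands Jag1 (1.72 ± 0.20), Jag2 (1.17 ± 0.19) and Dll4 (2.10 ± 0.51) rose and none fell (median 0.38), with adjusted p of 0.0009, 0.0053 and 0.0396. Of 20 genes of the G1 phase, Ccnd1, which encodes cyclin D1, rose (0.55 ± 0.13, adjusted p = 0.0396) and the kinase gene Cdk6 fell (−1.02 ± 0.19, adjusted p = 0.0119; median −0.18). Of 17 genes of an imprint maintenance list, the de novo methyltransferase gene Dnmt3b fell (−0.53 ± 0.10, adjusted p = 0.0116), none rose, and the median was −0.22. That list also holds Tet genes, whose products act in removing DNA methylation. With the replicate block 5 of these 17 were lower, Dnmt3b, Uhrf1, Dnmt1, Tet3 and Tet1 (adjusted p for Uhrf1 2.3e-05), and of the G1 genes 2 were higher (Ccnd1 and Cdkn1a) and 6 lower (Cdk6, E2f1, Cdkn2c, Rbl1, Ccne2 and Cdk2). Foxo1 of the IGF list and Notch1 of the Notch list were also higher with it. Without the block, Igf2bp2 and Jag1 were higher within each genotype, and Jag2 within WT.

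Markers of other cells moved in part with the fractions. Of 11 endothelial markers tested, Cldn5 (5.46 ± 0.24), Kdr (2.61 ± 0.22) and Cdh5 (2.80 ± 0.68) rose in Vwf+ cells, and the list summed to 568 to 690 CPM in Vwf+ and 438 to 514 CPM in Vwf− libraries. The endothelial marker Lyve1 was at 0 in 3 libraries and did not exceed 0.215 CPM. The other endothelial markers were detected in all 8 libraries, with Tie1 the highest at 199 to 323 CPM. Of 11 stromal markers Cxcl12 rose (1.43 ± 0.34), with sums of 42.9 to 82.8 CPM in Vwf+ and 35.5 to 61.5 CPM in Vwf− libraries. Lum was at 0 in 5 libraries, and Col3a1 and Postn in 1 each. The other stromal markers were detected in all 8, Pdgfrb for example at 13.4 to 28.4 CPM. Of 7 megakaryocyte markers Pf4 (1.48 ± 0.34) and Gp1bb (1.68 ± 0.32) rose, with sums of 233 to 387 CPM in Vwf+ and 186 to 237 CPM in Vwf− libraries. Of 7 neutrophil markers Elane rose (1.89 ± 0.44), but 5 had a negative change and the list's median was −0.44. Of 5 mast cell and basophil markers Cpa3 fell (−2.24 ± 0.32), none had a positive change, and the median was −1.72. Of 12 LT-HSC markers, Slamf1 (1.83 ± 0.12), Ctnnal1 (1.19 ± 0.11), Hoxb5 (1.21 ± 0.15), Fgd5 (1.17 ± 0.19) and Mecom (0.64 ± 0.11) rose. No erythroid, macrophage or B cell marker passed, and the T and NK cell list had no tested gene. With the replicate block, genes also higher included Procr (LT-HSC), Esam (endothelial), Itga2b, Ppbp and Gp9 (megakaryocyte), Mpo (neutrophil) and Epor (erythroid), and Pdgfrb (stromal) and Car1 (erythroid) were lower. Within Dnmt3a+/− mice the markers that passed without the block were Slamf1, Ctnnal1, Hoxb5, Cldn5 and Kdr, all higher. Within WT mice the same 5 and Fgd5 were higher, and Cpa3 was lower. The part of these cells in the members' changes was not tested.

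Over the 8 libraries, the genes most like each member that passed were found by the smallest root-mean-square (RMS) difference of centred log2 CPM, a description that shows nothing of shared control. For Ndn they were Wwtr1 (RMS 0.0566), Mycn and Adck3, and for Cdkn1c Lrriq3 (0.0897), Ifitm1 and Oxr1. For Peg3 they were Cysltr2 (0.171), Bex4 and Ces2g, and for Rian they included Calml4 (0.256) and Ecscr. For Dlk1 they were Tc2n (0.351), Cpt1c and Mogat2, and for H19 Ramp2 (0.871), Tacr1 and Pde3a. The match of H19 was the loosest, and H19 itself varied most (RMS 2.55 around its mean).

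The second comparison set Dnmt3a+/− against WT cells in each fraction. No member passed, averaged over Vwf status or within either fraction, and neither did any other gene (0% of tested genes by edgeR's quasi-likelihood test). At an unadjusted p under 0.05 there were 516, 363 and 211 genes (3.24%, 2.28% and 1.33%) in the averaged, Vwf+ and Vwf− comparisons, and DESeq2 called 16, 5 and 2. The members split evenly, with 5 higher and 5 lower in Dnmt3a+/− cells and a median log2 change of 0.05, beside 0.01 over all genes. The fit on group means leaves differences between replicate numbers, and so sexes, in the residual spread, which can hide genotype changes. With replicate number as a block no member passed either. The lack of calls does not show that the genotypes are alike.

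Dlk1 had the smallest p of the members. It averaged 16.5 ± 4.34 CPM in Dnmt3a+/− and 11.3 ± 3.26 CPM in WT Vwf+ cells, and 5.34 ± 2.54 CPM in Dnmt3a+/− and 1.73 ± 0.407 CPM in WT Vwf− cells (SD, n = 2 each). The female Vwf+ pair was the 1 of 4 pairs that was not higher in Dnmt3a+/− cells. The averaged change was 1.09 ± 0.28 (log2, SE), with an adjusted p of 0.998, and 0.114 with the block. Without the filter on low counts it passed, averaged (adjusted p = 0.00776) and within Vwf− cells (adjusted p = 0.00959). Within Vwf− cells it was 1.63 ± 0.41 (adjusted p = 1), and within Vwf+ cells 0.55 ± 0.38 (adjusted p = 1). Without the male Vwf− Dnmt3a+/− library the change within Vwf− cells was 1.02, and single libraries moved that within Vwf+ cells between 0.25 and 0.87. Mirg was higher in Dnmt3a+/− cells in 4 of 4 pairs, as were 8.23% of tested genes, with a change of 2.70 ± 1.00 within Vwf− cells and 0.18 ± 0.94 within Vwf+ cells (adjusted p = 1 in both). Ndn was lower in Dnmt3a+/− cells in 4 of 4 pairs, as were 7.53% of genes, by a small −0.24 ± 0.11 that did not pass. The other 7 averaged from −0.19 (Cdkn1c) to 0.91 (H19), and no member had all 4 Dnmt3a+/− libraries above all 4 WT libraries, as 1.24% of tested genes did, or below them, as 0.848% did. None of the lists of imprinted, IGF, Notch, G1 or imprint maintenance genes had a passing gene.

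**Figure D4:**
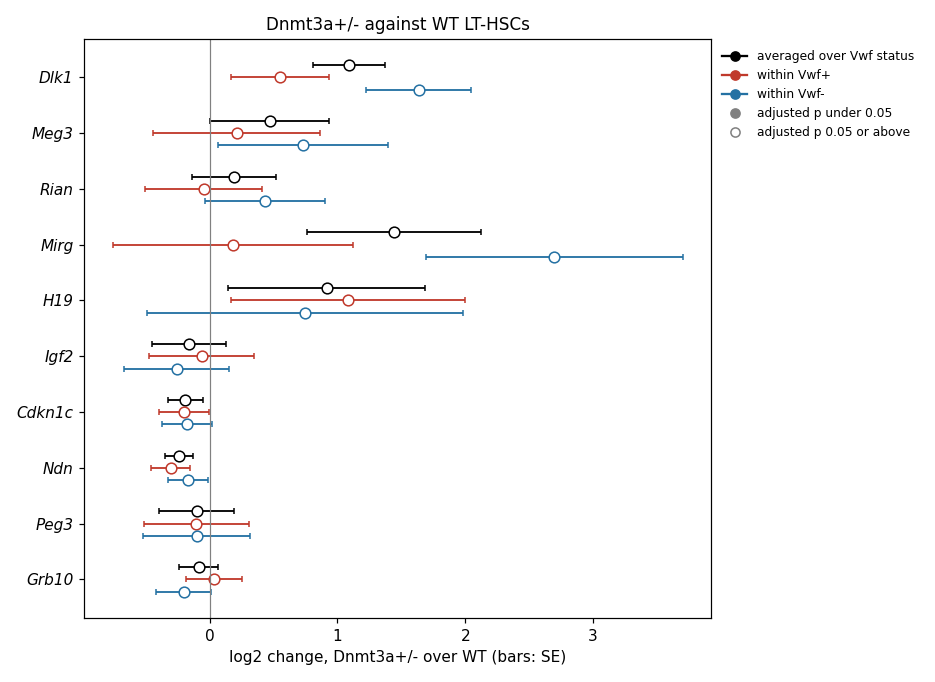
Log2 change of each gene, Dnmt3a+/− over WT (horizontal axis), averaged over Vwf status (black), within Vwf+ (red) and within Vwf− (blue), with bars of 1 SE; all points are open because none reached an adjusted p under 0.05. Dlk1 and Mirg within Vwf− cells lie farthest from 0, at 1.63 and 2.70.

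Whether the Vwf difference itself differs between genotypes was tested as an interaction. None of the 15917 genes passed by edgeR (159 at an unadjusted p under 0.05), and the members ran from −2.51 ± 1.36 for Mirg and −1.09 ± 0.56 for Dlk1 to 0.33 ± 1.62 for H19 (log2; adjusted p = 1 for all). The Dlk1 value ran from −1.49 to −0.47 without single libraries, and was −0.47 without the male Vwf− Dnmt3a+/− library. With 2 libraries per group, similar effects in both genotypes are not shown for any member, least of all for H19 and Mirg, whose SEs exceeded 1.

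The third contrast set male (replicate 1) against female (replicate 2) pools, with the 4 group means in the model. Of the members, Meg3 was higher in male pools (1.01 ± 0.28, adjusted p = 0.0267) and Grb10 lower (−0.34 ± 0.10, adjusted p = 0.0352), against a background of 4.92% of genes higher and 5.62% lower. Rian (0.70 ± 0.23, adjusted p = 0.0585) and H19 (−1.44 ± 0.51, adjusted p = 0.0787) did not pass, though Rian was higher in male pools in 4 of 4 pairs and H19 lower in 4 of 4, like 16.1% and 15.7% of genes. Grb10 was also lower in 4 of 4 pairs, and Meg3 higher in 3 of 4. The nuclear-retained RNAs Malat1 (1.13 ± 0.17), Neat1 (1.14 ± 0.17) and Kcnq1ot1 (0.67 ± 0.16) were also higher in male pools, and their list summed to 10769 to 20281 CPM in male and 6489 to 8372 CPM in female libraries. Xist, the RNA of the inactive X chromosome, is part of that list and its sums, and was lower in male pools (−8.71 ± 0.19). Malat1 alone stood at 9704 to 18515 CPM in male and 4619 to 6033 CPM in female libraries.

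Both sex calls were lost under some alternatives. Meg3 lost it without the male or the female Vwf− Dnmt3a+/− library (0.57 and 0.55, adjusted p = 0.106 and 0.126) and with DESeq2 (adjusted p = 0.236). Grb10 lost it with plain library totals (adjusted p = 0.0919) and without any 1 of the Dnmt3a+/− or Vwf− WT libraries (adjusted p from 0.0871 to 0.237). Of the 18 other paternally expressed imprinted genes, Zrsr1 (0.47 ± 0.10), Peg13 (0.36 ± 0.09) and Kcnq1ot1 were higher and Peg12 lower (−0.86 ± 0.22) in male pools, and none of 15 maternal ones passed. Igf1, the ligand gene, was higher in male pools (1.71 ± 0.39), as was Dll4 (1.27 ± 0.27). Of 20 G1 genes none was higher and 7 were lower, among them Cdkn2c (−0.78 ± 0.13), Cdk6 (−0.47 ± 0.11), Cdkn2d (−0.53 ± 0.13), E2f2 (−0.71 ± 0.20) and Ccnd3 (−0.34 ± 0.10). Of 17 imprint maintenance genes Zfp57, a reader of methylated imprint marks, was higher (0.92 ± 0.17), and Uhrf1 (−0.91 ± 0.13), Dnmt1 (−0.73 ± 0.12) and Trim28 (−0.39 ± 0.10) were lower. Of 12 LT-HSC markers Procr (0.88 ± 0.11) and Fgd5 (0.49 ± 0.10) were higher in male pools. The endothelial markers Tie1 (0.38) and Kdr (0.43) and the macrophage marker Vcam1 (1.05) were also higher. Of 11 stromal markers Col1a2 and Pdgfrb (−0.58) were lower, whereas 7 had a positive change and the median was 0.16.

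**Figure D5:**
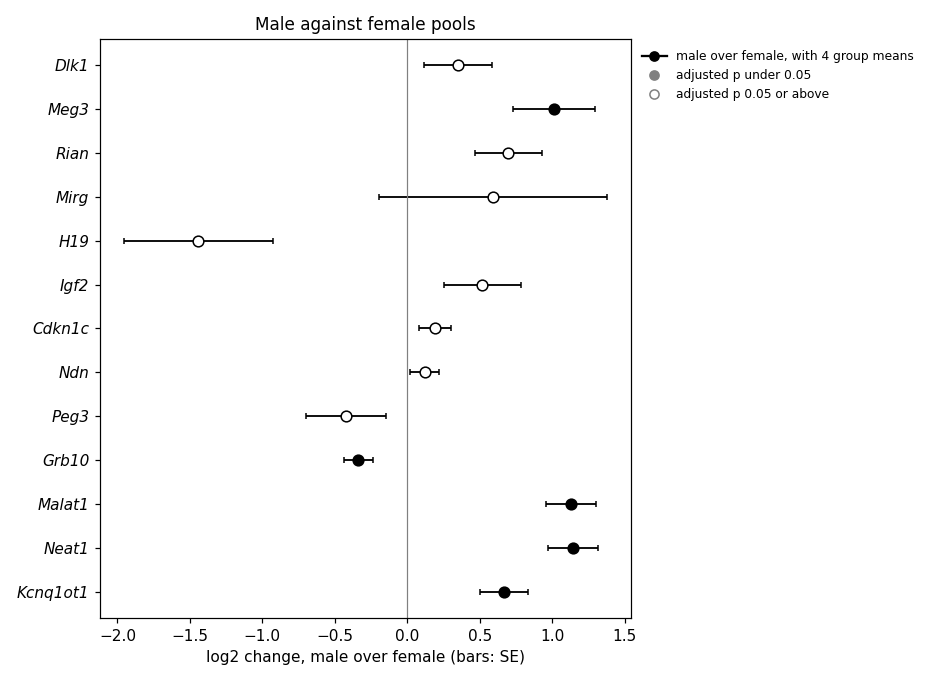
Log2 change, male over female pools (horizontal axis), of the 10 genes and of the nuclear-retained RNAs Malat1, Neat1 and Kcnq1ot1, with bars of 1 SE and filled points at an adjusted p under 0.05. Of the 10 genes, Meg3 at 1.01 and Grb10 at −0.34 are filled, and Meg3 lies near Malat1 and Neat1.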

How the data were processed

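The 10 members, the gene lists and the tests were chosen with earlier results of these data known. The authors deposited 1 table of raw counts and 1 of TPM for the same 24421 genes and 8 libraries. Per the labels' protocols, RNA came from the Qiagen AllPrep micro kit and libraries from Takara's v3 Pico kit for total RNA. Per the submitters' processing notes, Trim Galore, STAR, featureCounts and DESeq2 were used with build mm10, without stated roles or versions. The annotation, the strand setting and the rule for reads with several alignments are not given in the sources used here. The TPM values, as deposited, equal counts divided by 1 fixed length per gene and scaled to 1e+06 per library.

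Counts were tested in R 4.3.3 with edgeR 4.0.16 (filterByExpr with a minimum count of 10, TMM factors of 0.958 to 1.06, quasi-likelihood F-test on 4 group means, 4 residual degrees of freedom), with Benjamini-Hochberg adjustment over all 15917 tested genes and a threshold of 0.05. Sex was added to the group means for its own contrast. Each log2 change is followed by its SE, taken as the absolute change over the root of F. CPM are scaled by TMM; TPM served for levels between genes and ratios. Counting limits use 3 counts of a library's total, or 95% Poisson intervals, and cover counting error only. P-values set each change against the spread between pooled libraries. In the fit on group means alone, that spread includes the difference between replicate numbers, and so sexes.

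Replicate numbers pair the libraries: each number has 1 sex throughout, per the labels, and differences between replicates correlated between groups in all 6 pairs of groups (r of 0.13, 0.3, 0.16, 0.23, 0.2 and 0.24 over 15917 genes). A fit with replicate number as a block, with 3 residual degrees of freedom, is given where it changes a member's call, and for the lists in the averaged Vwf comparison. The other alternatives were RLE size factors, plain library totals, no filter, DESeq2 1.42.0 and leaving out each library. All 10 members and the passing genes of each list, at most the 5 with the smallest p per list and comparison, are named. Sequences are RefSeq's, as are the coordinates of the start-site windows and of miR-675, and gene coordinates are GENCODE's. The Ndn window lies wholly inside the GENCODE interval of the gene. Some genes that the rules would name are not reported here.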

Additional observations from a re-analysis of the deposited data

Results flagged for a closer look

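Mirg was flagged because its Vwf+ minus Vwf− difference pointed down in both pairs of Dnmt3a+/− libraries and up in both pairs of WT libraries. Its CPM were 0.877 and 0.434 in Vwf+ against 1.34 and 0.798 in Vwf− cells of Dnmt3a+/− mice, and 0.720 and 0.431 in Vwf+ against 0.142 and 0.180 in Vwf− cells of WT mice. The test of the difference itself gave −2.51 ± 1.36 on the log2 scale (SE), which did not pass (adjusted p = 1, edgeR's quasi-likelihood test; unadjusted p = 0.0939). Summed counts were 32 and 26 in Vwf+ and 81 and 10 in Vwf− cells of Dnmt3a+/− and WT mice.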

How the results depend on the processing

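The 12 member changes that passed in some comparison kept their direction under all alternatives, and RLE size factors changed no member's call or direction. The cause of the shifts below was not tested. In the Vwf comparison averaged over genotype, 866 genes passed; the replicate block gave 2132, no filter 1649 and DESeq2 1418, and 472 to 1387 (4 to 7 members, against 6) passed when 1 library was left out. Within Dnmt3a+/− mice 169 genes and 1 member passed, against 855 and 6 with the replicate block, 633 and 6 without a filter, 494 and 3 with DESeq2, and 75 to 291 and 0 to 4 without single libraries. The 4 members came without the male Vwf− Dnmt3a+/− library and 3 without the male Vwf− WT library. Within WT mice 314 genes and 3 members passed, against 1329 and 6 with the replicate block, 1059 and 6 without a filter, 731 with DESeq2, and 64 to 639 and 0 to 6 without single libraries. No member passed there without either female WT library, and 6 passed without either Vwf− Dnmt3a+/− library. The genotype comparisons, which called 0 genes, gave 30, 6 and 2 genes (averaged, Vwf+, Vwf−) with the replicate block, 61, 53 and 27 without a filter, 16, 5 and 2 with DESeq2, and 0 to 3 (averaged) or 0 without single libraries. Among these was 1 member without a filter, Dlk1, both averaged (1.09, adjusted p = 0.00776) and within Vwf− cells (1.63, adjusted p = 0.00959). The interaction gave 24 genes without a filter and 0 without single libraries. For sex, 1677 genes and 2 members passed, against 4 members without a filter, and 713 to 2922 genes and 0 to 5 members without single libraries, with 5 members without either Vwf+ WT library and 0 without either Vwf− Dnmt3a+/− library.

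The values that changed sign were not called. A group left with 1 library was assumed to vary like the others. Within Vwf+ cells the genotype change of Meg3 was −0.014 with the replicate block and that of Rian 0.0056 with library totals, and the interaction of Peg3 was 0.086, 0.016 and 0.0052 with the replicate block, library totals and no filter. Reversals without single libraries spanned these log2 ranges: Meg3 −0.026 to 2.74 for Vwf status within Dnmt3a+/−; Meg3 −0.39 to 0.83, Rian −0.30 to 0.48, H19 −2.07 to 1.47, Igf2 −0.35 to 0.082, Peg3 −0.33 to 0.11 and Grb10 −0.25 to 0.045 for genotype averaged; Meg3 −0.85 to 0.82, Rian −1.02 to 0.53, Mirg −0.40 to 0.61, Igf2 −0.43 to 0.43, Peg3 −0.43 to 0.33 and Grb10 −0.17 to 0.21 within Vwf+; Meg3 −0.99 to 1.47, Rian −0.096 to 0.79, H19 −5.23 to 1.87, Cdkn1c −0.38 to 0.043, Peg3 −0.57 to 0.24 and Grb10 −0.54 to 0.047 within Vwf−; and Meg3 −1.57 to 1.201, Rian −1.45 to 0.11, H19 −0.78 to 6.33, Igf2 −0.17 to 0.70, Cdkn1c −0.25 to 0.18, Ndn −0.25 to 0.0028, Peg3 −0.33 to 0.47 and Grb10 −0.0036 to 0.57 for the interaction. The H19 values of −2.07, −5.23 and 6.33 rest on a group left at a count of 0 and are no bounds. The replicate block changed no member's call beside those given with the results. H19 and Mirg are limited by low counts, 0 to 18 in the Vwf− libraries and 4 to 56 over all libraries.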
